A study of Homo sapiens with 6 samples.

Results

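The major histocompatibility region of the short arm of chromosome 6 was taken as the stretch from 29.62 to 33.40 Mb of the human build hg19. Its members are the bins of 20 kb that start inside these limits and have a compartment score in both cell lines, and there were 183 of them among 140474 shared bins in the whole series. The region was divided by position into class I, from 29.62 to 31.50 Mb with 94 bins, class III, from 31.50 to 32.35 Mb with 43 bins, and class II, from 32.35 to 33.40 Mb with 46 bins. The limits were drawn by position and not by any measured value, though they were chosen with earlier results of these data known. On the grid the region has 189 bins, and the 6 that were not shared lie together in class II, at positions 32480001 to 32600000. The first of these 6 was scored in HCT116 alone.

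The region is one of the most gene-dense stretches of the human genome and holds many genes of the immune system. Class I carries HLA-B and HLA-C, whose products show peptides from inside the cell to cytotoxic T cells, the related HLA-E, HLA-F and HLA-G, and the stress ligands MICA and MICB. Class III carries no HLA genes. It holds the cytokine genes LTA, TNF and LTB, the heat shock gene HSPA1A, the complement genes C2, CFB, C4A and C4B, and the receptor gene NOTCH4. Class II carries HLA-DRA, HLA-DRB1, HLA-DQA1, HLA-DQB1, HLA-DPA1 and HLA-DPB1, which present peptides taken up from outside, mainly on professional antigen-presenting cells. Among these lie HLA-DMA and HLA-DMB, which load class II molecules, the peptide transporter genes TAP1 and TAP2, and the immunoproteasome genes PSMB8 and PSMB9. In RefSeq's gene order on GRCh38, all 28 of these landmark genes were found, with 49 protein-coding genes from HLA-F to MICB, 55 from LTA to NOTCH4 and 18 from HLA-DRA to HLA-DPB1. That build differs from the one of the tracks, so no gene was assigned to a bin.

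Hi-C measures which parts of the genome touch, by joining and sequencing DNA ends that lie close together in cross-linked nuclei. It was done on 3 libraries of HCT116, an established human colorectal cancer line labelled as wild type, and on 3 libraries of DKO1, an HCT116 derivative with DNMT1 and DNMT3B knocked out. DKO1 is a clone with little DNA methylation left and is known to keep a truncated DNMT1 protein, so clonal differences from HCT116 cannot be told apart from the knockout. All 3 libraries of a line name the same files, which were taken as pooled, so each bin has 1 value per line, no value has a replicate error and no test between the lines was possible. The compartment score is the first principal component (PC1) of the contact map, which in the deposited tracks has a mean of 0 and an SD of 1 over each chromosome. A positive score was read as compartment A, the open and active part of the nucleus, and a negative one as compartment B, the closed part. The depth of the maps is unknown.

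The region as a whole had a lower score in DKO1 than in HCT116. The mean score over the region was 0.82 in HCT116 against 0.33 in DKO1, a difference of -0.49. Of its 183 bins, 178 were lower in DKO1, where 49.4% of all autosomal bins were lower. Neighbouring bins move together, and 38 of 664 autosomal windows of the same length had a higher share of lower bins. Falls of more than 0.5 were found in 89 bins, or 48.6%, against 14.9% of autosomal bins and 26.1% of those on chromosome 6. Rises of more than 0.5 were found in 0 bins, against 13.6% of autosomal bins and 1945 of 8376 on chromosome 6. Scores are scaled per chromosome, so chromosome 6 is the closer background for the size of a change. In HCT116, 173 of the bins were A, and in DKO1 140 were. The bins that changed sign all went from A to B. There were 33 of them, or 18.0% of the region, against 8.92% of autosomal bins. Because most of the region was A to begin with, the closer reading is per A bin of HCT116, and there 19.1% switched in the region against 16.6% on the autosomes, so the region as a whole lay near the background. From B to A 0 bins went, against 4.4% of autosomal bins, but the region had just 10 B bins in HCT116. The switched bins were unevenly spread, with 1 of 94 A bins in class I, 24 of 39 in class III and 8 of 40 in class II.

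**Figure D1:**
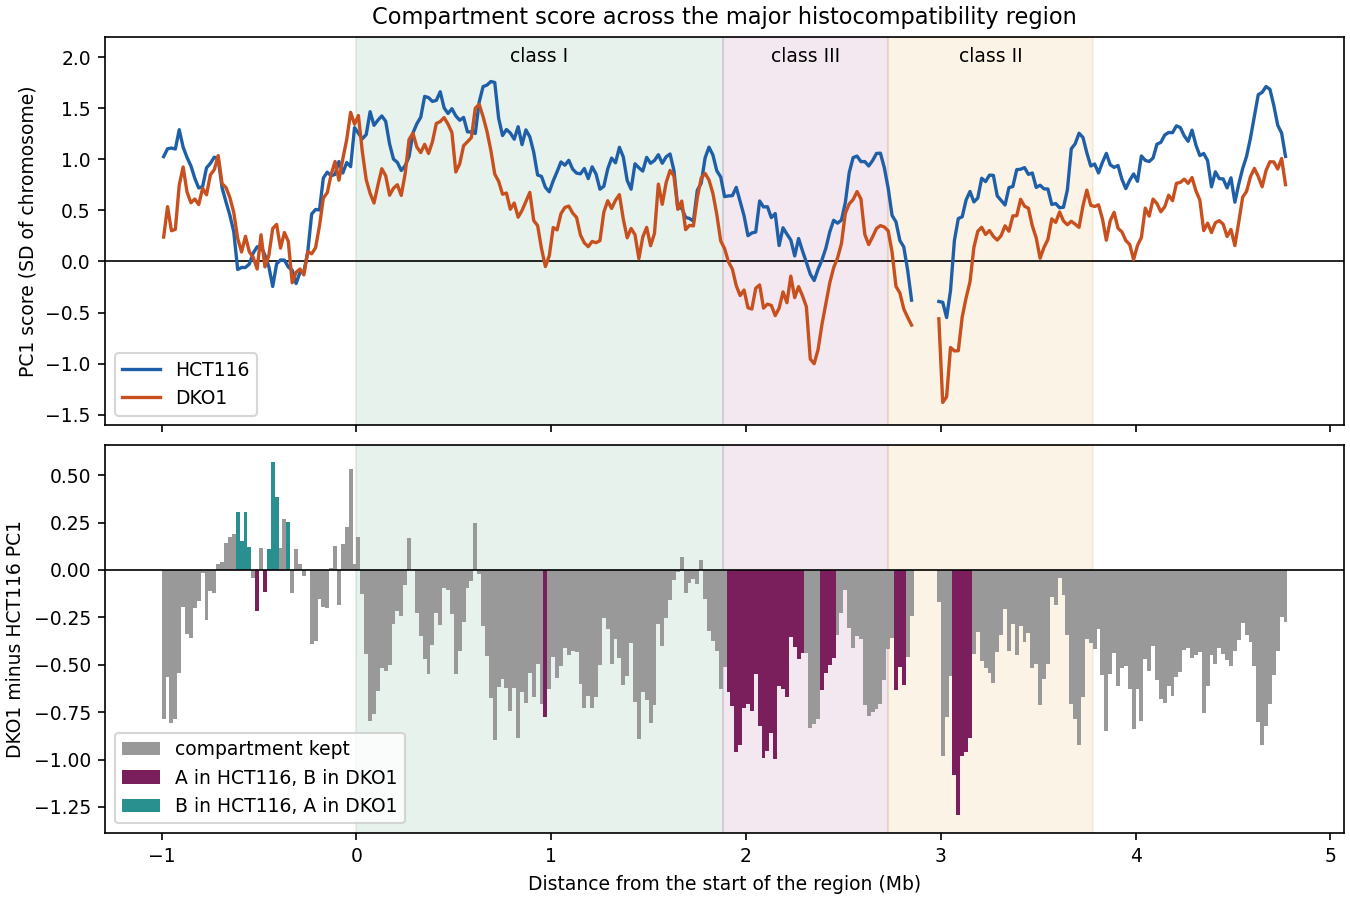
The upper panel plots the PC1 score of each 20 kb bin in HCT116 and DKO1 against the distance from the start of the region, with 1 Mb on either side, and the lower panel plots DKO1 minus HCT116 for the same bins, coloured by compartment change. The DKO1 line runs below the HCT116 line in 178 of the 183 bins of the region, and 24 of the 33 A-to-B bins lie in class III; the break in class II is the stretch of bins that were not shared.

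Class I was strongly A in HCT116 and stayed A in DKO1 at a lower level. All 94 bins were positive in HCT116, with scores from 0.39 to 1.76 and a mean of 1.1 (SD over bins 0.32). In DKO1 93 were positive, with a range from -0.050 to 1.54 and a mean of 0.69 (SD over bins 0.39). The difference averaged -0.41, and 89 of the bins were lower in DKO1. The blocks from 29620001 to 30420000 held the highest scores in both lines. From 30220001 to 30420000 the mean was 1.5 in HCT116 and 1.03 in DKO1, and the highest bin of each line, at 30300001 in HCT116 and at 30240001 in DKO1, lies there. The fall was then larger between 30420001 and 31220000, where the 200 kb blocks differed by -0.67, -0.53, -0.50 and -0.58. The bin at 30580001 was the only A-to-B bin of class I, with 0.73 in HCT116 and -0.050 in DKO1. The next block, from 31220001 to 31420000, was an exception to the fall, with means of 0.67 and 0.61 and a difference of -0.056.

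By the deposited scores, class III held most of the compartment switch. This spread depends on the zero line, since after subtraction of a 10 Mb running mean from each track the A-to-B bins numbered 19 in class I, 4 in class III and 4 in class II. The bins still above the new zero in HCT116, and the autosomal share, were not counted, so these numbers are not shares of A bins. In HCT116 39 of the 43 bins of class III were A, at a moderate level, with scores from -0.19 to 1.06 and a mean of 0.48 (SD over bins 0.36). In DKO1 15 were A, with scores from -1.0 to 0.68 and a mean of -0.13 (SD over bins 0.42). All 43 bins were lower in DKO1, by 0.11 to 1.0, with a mean difference of -0.62, and 28 of them fell by more than 0.5. Every bin was also lower in 342 of 3015 autosomal windows of the same length. The first 3 blocks of 200 kb, from 31500001 to 32100000, had means of 0.51, 0.32 and 0.092 in HCT116 and of -0.22, -0.37 and -0.49 in DKO1. In these blocks 9, 10 and 5 of 10 bins switched. The fourth block, from 32100001 to 32300000, stayed A, with 0.88 in HCT116 and 0.41 in DKO1. The switched bins of class III thus lay in its first 3 blocks, and the last part, next to class II, kept its sign.

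The 24 switched bins of class III formed 2 runs around an existing dip. The longer run, at 31520001 to 31920000, measured 400 kb and went from a mean of 0.39 (bins from 0.054 to 0.73) to -0.32 (bins from -0.53 to -0.0030). Of 2372 autosomal A-to-B runs, 103 were at least as long, or 4.34%, and on chromosome 6 there were 5 of 151, this run included. The shorter, at 32000001 to 32080000, measured 80 kb and went from 0.21 to -0.33. Between them HCT116 already had a B interval of 80 kb, at 31920001 to 32000000, with a mean of -0.099. In DKO1 a single B interval of 560 kb, at 31520001 to 32080000 with a mean of -0.39, took in both runs and the dip. The lowest bin of class III was the same in both lines, at 31960001, with -0.19 in HCT116 and -1.0 in DKO1.

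Class II changed around the bins that were not scored and kept its sign beyond them. In HCT116 40 of its 46 bins were A, with scores from -0.55 to 1.26 and a mean of 0.57 (SD over bins 0.44). In DKO1 32 were A, with scores from -1.38 to 0.70 and a mean of 0.045 (SD over bins 0.52). All 46 bins were lower in DKO1, with a mean difference of -0.52. Every bin was also lower in 248 of 2481 autosomal windows of the same length. On either side of the unscored bins HCT116 was already B, from 32440001 and up to 32680000, and in DKO1 this B stretch began at 32380001 and ended at 32780000. The 3 switched bins before the gap, at 32380001 to 32440000, went from 0.25 to -0.34. The 5 after it, at 32680001 to 32780000, went from 0.47 to -0.57. The largest fall of the whole region lay among these, at 32700001, where the score was 0.42 in HCT116 and -0.87 in DKO1, a difference of -1.29. Falls of more than 1 occurred in 2 bins of the region, both in class II, against 2.57% of autosomal bins. On chromosome 6 there were 460 among 8376 bins. From 32960001 to 33160000 the means were 0.81 and 0.36, and from 33160001 to 33360000 they were 0.83 and 0.39, so that the centromeric part stayed A in both lines.

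The mean difference was -0.41 in class I, -0.52 in class II and -0.62 in class III (SD over bins 0.27, 0.27 and 0.22). Without replicates, and with neighbouring bins that are not independent, these falls could not be tested against each other. In HCT116 the mean of class I stood 0.62 above that of class III, while class II and class III were close, at 0.57 and 0.48. The course of the score along the region was shared about as far as in other autosomal stretches. Across bins, Pearson's r between the lines was 0.73 in class I, 0.86 in class III and 0.85 in class II, and 0.88 over the 183 bins of the region. These values describe neighbouring bins of 1 pair of maps. Over autosomal windows of the same lengths the median r was 0.83, 0.72 and 0.75, and 0.88 for the length of the whole region.

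**Figure D2:**
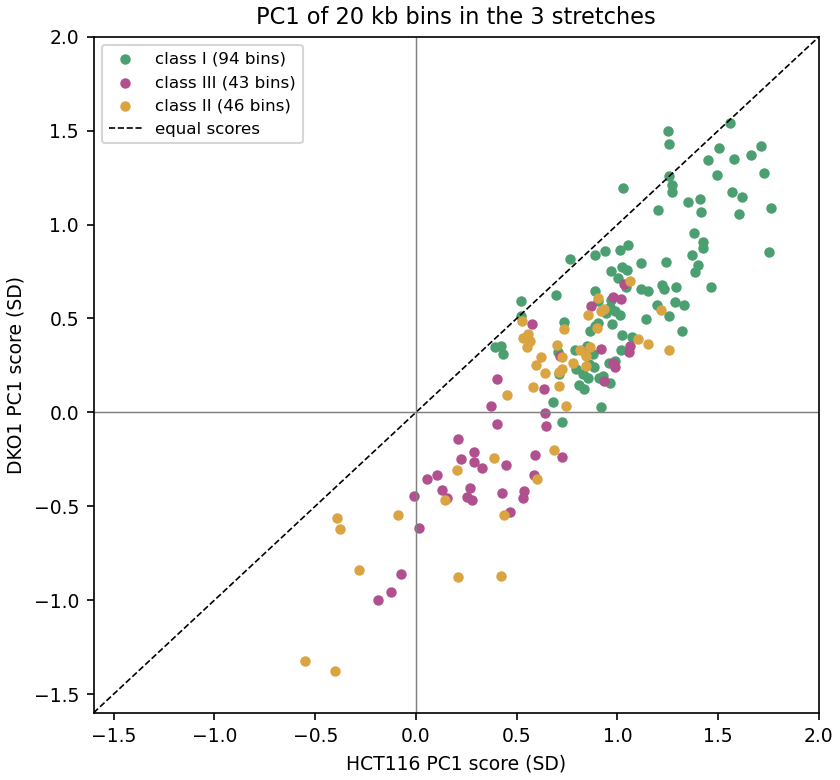
Each point is 1 bin of 20 kb, with its PC1 score in HCT116 on the horizontal and in DKO1 on the vertical axis, coloured by stretch. Nearly all points lie below the dashed line of equal scores, and the lower right part, positive in HCT116 and negative in DKO1, holds 24 bins of class III, 8 of class II and 1 of class I.

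The size of the fall and the switched share were set beside windows of the same number of bins tiled over the autosomes, outside the region. This places the stretches and is not a test. The windows had at least 90% of their bins present, a share that class II, with 46 of 52, does not reach. The mean change of class III was lower than that of 92.4% of 3015 windows, that of class II lower than in 90.2% of 2481 and that of class I lower than in 87.3% of 1361. The A-to-B share of class III, 55.8% of its bins, was exceeded in 4.54% of the windows, where the median was 0%, and in 8.37% of those with a positive HCT116 mean, which have more A bins to lose. The 17.4% of class II were exceeded in 16.5% of windows and in 25.2% of those with a positive mean, and the 1.06% of class I in 51.7%, where the median was 2.13%. The region of 3.78 Mb as a whole had a lower change than 91.6% of 664 windows, and its share of switched bins was exceeded in 16.1%. Among windows of chromosome 6 alone, which share the scaling of the track, larger falls were commoner, and 27.9% of windows fell further than class I, 17.0% further than class III and 23.4% further than class II.

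**Figure D3:**
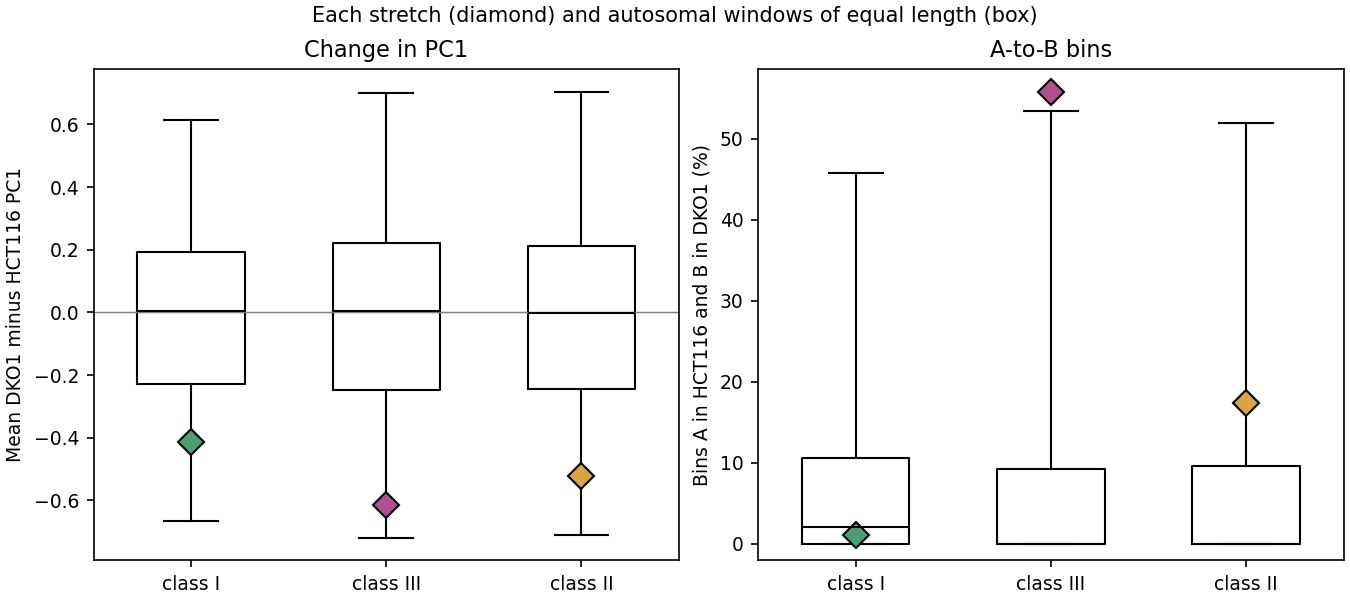
Diamonds give the value of each stretch and boxes the autosomal windows of equal length, with the median, the quartiles and whiskers from the 5th to the 95th percentile; the left panel plots the mean of DKO1 minus HCT116 PC1 and the right panel the percentage of A-to-B bins. All 3 diamonds lie below the lower quartile for the change, while for the switched share the diamond of class III lies above the upper whisker and the median of the class III and class II windows is 0%.

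Bins near 0 change sign easily, so the switched share was also read against autosomal bins with the same score in HCT116, in a comparison added after the values were seen. Among bins scored from 0 to 0.5 in HCT116, 45.2% of those on the autosomes outside the region were B in DKO1. In class III 17 of 19 such bins were, in class II 6 of 7, and in class I 0 of 3. The mean difference of these bins was -0.57 in class III, -0.78 in class II and -0.077 in class I, against -0.19 on the autosomes. The switched share of bins this close to 0 thus largely restates the size of the fall. Neighbouring bins fell together and are not independent cases, and the share on chromosome 6 alone was not counted. Among bins scored from 0.5 to 1 the autosomal share was 9.50%, and the counts were 7 of 16 in class III, 2 of 28 in class II and 1 of 38 in class I. From 1 to 1.5 there were 0 switched bins in all 3 stretches, against 0.929% on the autosomes, but the fall was present there too. The mean difference of the 51 such bins of the region was -0.44, against 0.0033 over the autosomes. None of the 33 switched bins of the region had an absolute PC1 of at least 0.5 in both lines. The autosomal share at this limit was not counted. The limit asks for distance from 0 in both lines and does not measure the size of a fall. In the class II run at 32680001 to 32780000 the mean difference was -1.04.

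**Figure D4:**
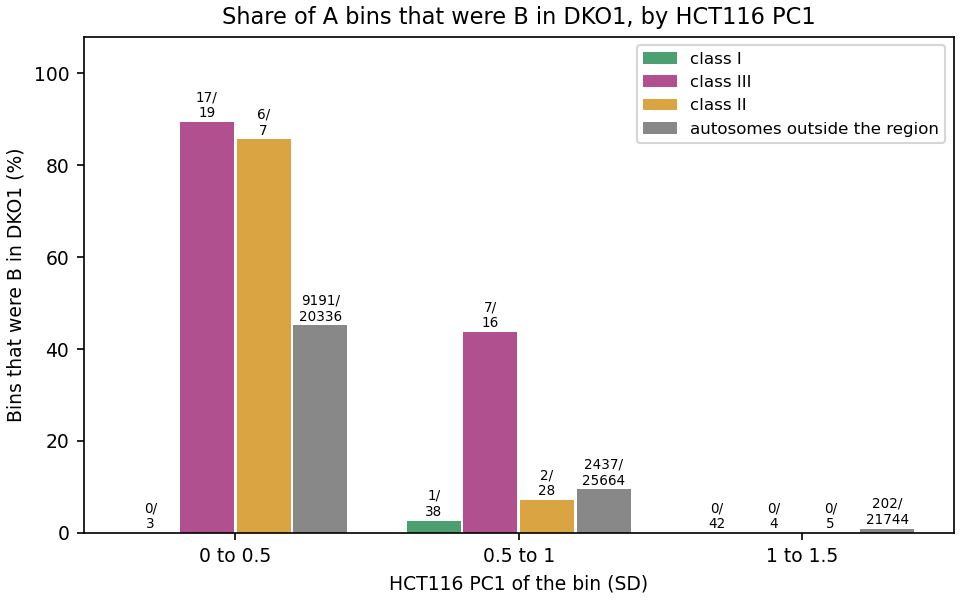
Bars give the percentage of A bins of HCT116 that were B in DKO1, for 3 classes of HCT116 PC1 on the horizontal axis, in each stretch and over the autosomes outside the region, with the switched and total bins above each bar. In the lowest class 17 of 19 bins of class III and 6 of 7 of class II switched, beside 45.2% of the autosomal bins, and in the highest class 0 bins of the region did.

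The fall reached beyond the region on its centromeric side, where all 50 bins of the next 1 Mb were lower in DKO1, with a mean difference of -0.54. In segments of 5 Mb along chromosome 6, the one from 30 to 35 Mb went from a mean PC1 of 0.91 in HCT116 to 0.40 in DKO1, a difference of -0.50. Of the 12 segments up to 60 Mb, 10 were higher in DKO1, and the other that was lower, from 25 to 30 Mb, differed by -0.017. Across the whole chromosome 18 of 35 segments were lower in DKO1, with both tracks centred on 0. Ranked from the lowest change, the segment from 30 to 35 Mb stood at place 7 of 35. Those that fell further all lay beyond 60 Mb, and the largest fall, from 65 to 70 Mb, was a difference of -0.82. When a running mean of 10 Mb was subtracted from each track, the differences shrank to -0.11 in class I, -0.26 in class III and -0.16 in class II. The running mean takes in the bins of the region themselves, so it removes part of a fall of this width in any case.

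Topologically associating domains, stretches that contact themselves more than their neighbours, were listed densely in the region. By midpoint, 13 domains lay there in HCT116 and 9 in DKO1. Only 8 of 664 autosomal windows of the same length held more in HCT116, and 10 held more in DKO1. The number in DKO1 was 69.2% of that in HCT116, against 42.7% on the autosomes. Domain lengths ran from 160 to 400 kb in HCT116 and from 200 to 360 kb in DKO1. At a reciprocal overlap of at least 80%, 7 of the 13 HCT116 domains were kept in DKO1, or 53.8% (Wilson 95% interval 29.1 to 76.8, for counting error only), against 35.9% of autosomal HCT116 domains. Of the 9 DKO1 domains 7 were matched, against 84.0% on the autosomes. Within 40 kb, 12 of 17 HCT116 boundaries were found in DKO1 (Wilson 95% interval 46.9 to 86.7), against 45.2% on the autosomes. In the other direction 12 of 14 DKO1 boundaries were found in HCT116 (60.1 to 96.0), against 92.5%. Where the other line lists domains more densely, a match is more likely by position alone. The shares were not adjusted for this, so they do not show that boundaries were better kept here. At exactly the same position lay 8 boundaries.

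In class I, 4 of 6 HCT116 domains were kept, and the loss was in its middle. The domains at 29600001 to 29800000 and 29800001 to 30000000 were matched at 83.3% and 100%, and those at 30800001 to 31120000 and 31120001 to 31360000 at 87.5% and 83.3%. Between these pairs HCT116 listed domains at 30160001 to 30400000 and 30400001 to 30800000, and no DKO1 domain covered any part of either. Both were A in both lines, with mean PC1 of 1.47 and 0.98 in HCT116 and 1.11 and 0.38 in DKO1. Domains covered 84.0% of class I in HCT116 and 47.9% in DKO1.

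In class III 1 domain was kept although its compartment changed. HCT116 and DKO1 each listed 3 domains, which covered 88.2% of the stretch in both lines. The HCT116 domain at 31600001 to 31920000 was kept at an overlap of 87.5%, although all 16 of its bins switched from A to B and its mean PC1 went from 0.32 to -0.36. The domain at 32200001 to 32400000, whose mean stayed positive at 0.85 and 0.24, had identical limits in both lines. The domain between them, at 31920001 to 32200000 in HCT116, began at 31840001 in DKO1, which gave an overlap of 77.8%, just under the limit for a match.

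In class II, 1 of 4 HCT116 domains was kept, at 32960001 to 33240000 with identical limits in both lines and mean PC1 of 0.75 and 0.36. The domain at 32400001 to 32800000, which spans the unscored bins, ended at 32680000 in DKO1, with an overlap of 70%. Its bins averaged 0.085 in HCT116 and -0.63 in DKO1, and 7 of its 14 scored bins switched. The domain at 32800001 to 33000000 overlapped its best DKO1 partner by 14.3%, and that at 33240001 to 33400000 had none. Coverage by domains was 100% in HCT116 and 58.1% in DKO1. The shares kept, 4 of 6, 2 of 3 and 1 of 4, rest on too few domains to set the stretches apart, with Wilson intervals of 30.0 to 90.3%, 20.8 to 93.9% and 4.56 to 69.9%.

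**Figure D5:**
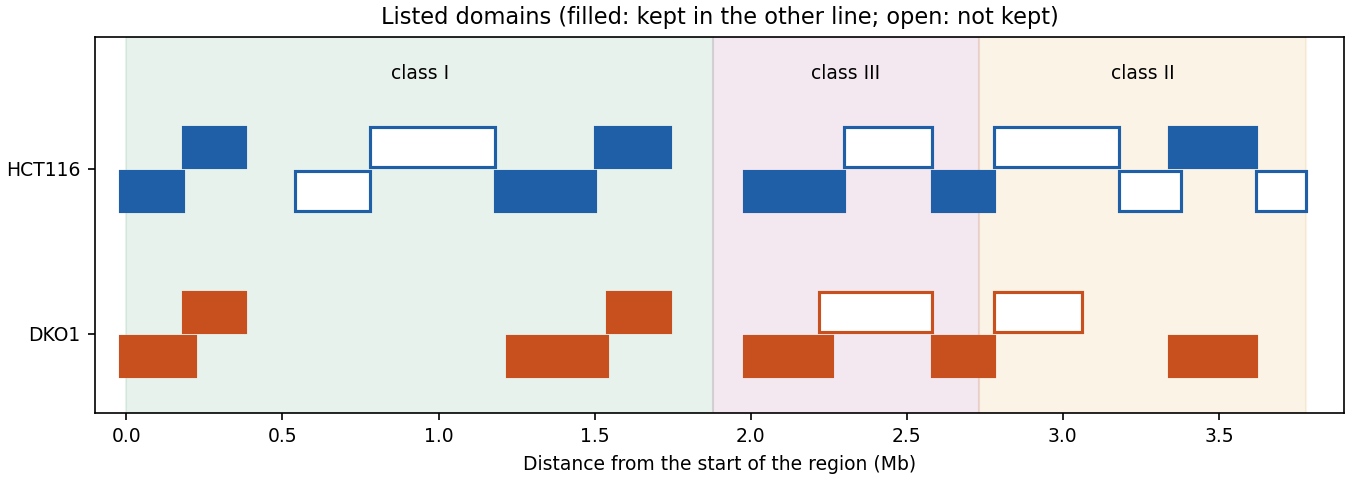
Each box is 1 listed domain with its midpoint in the region, drawn to scale against the distance from the start of the region, with HCT116 above and DKO1 below; boxes are set at 2 heights so that neighbours can be told apart. Filled boxes were kept in the other line at a reciprocal overlap of at least 80%, 7 in each line, and the middle of class I holds 2 open HCT116 boxes above an empty stretch of DKO1.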

How the data were processed

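Compartment scores and domain lists were used for HCT116 and DKO1, 1 file of each kind per line. The deposited PC1 scores are given per 20 kb bin, and their mean of 0 and SD of 1 per chromosome were read from the values. The deposited domain lists hold positions on a 40 kb grid and no score. HiC-Pro, HOMER 4.6 and the build hg19 (GRCh37) are named in the submitters' processing notes with no role, and the domain caller is not given in the sources used here. Bins were joined by chromosome and start, and a bin was assigned to the stretch that holds its start. Windows of 94, 43, 52 and 189 bins were tiled from the start of each autosome, with at least 90% of bins present, and windows touching the region were left out. Domains were assigned by midpoint. Starts and ends of domains, each counted once, are the boundaries. The region, its limits, the landmark genes and the comparisons were chosen with earlier results of these data known. Named features were all domains and switched runs of the region and, per stretch, bins with extreme scores or changes, and the 200 kb blocks were added after the values were seen. Alternatives covered centring, scale, limits, smoothing, overlap, tolerance and the windows used. One landmark gene is not reported here. Functions were tested on simulated data. Python 3.11.15, numpy 2.4.6, pandas 2.3.3 and scipy 1.17.1 were used. Promoter sequences were not used, because no score or domain bears on a single promoter.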

Additional observations from a re-analysis of the deposited data

How the results depend on the processing

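No paired analysis was possible because each line is represented by pooled files, from which no single library can be taken out or paired. PC1 values and counts of bins were compared by a factor of 1.5, and shares and places among windows by their Wilson interval. By these limits 84 of 115 alternatives over 30 results stayed inside and 31 did not, and none turned the sign of a PC1 mean or change. The intervals for domains and boundaries rest on few items and are wide. A share of class III domains kept that went from 66.7% to 33.3% at an overlap of 90% still counted as inside. With an absolute PC1 of at least 0.5 in both lines, the A-to-B bins went from 1, 24 and 8 in class I, III and II to 0 in each. Smoothing over 5 bins left 0 in class I. Subtracting a 10 Mb running mean gave changes of -0.11, -0.26 and -0.16, and A-to-B counts of 19, 4 and 4, with 4 B-to-A bins in class I. Class I, the longest stretch, then held most A-to-B bins, but the A bins left in HCT116 and the autosomal share were not counted. That sign count was added after the values were seen, as was moving the bin that holds the limit at 32.35 Mb to class II, which changed no count. The mean DKO1 PC1 of class III was -0.079 with limits 100 kb outwards and -0.20 inwards. That of class II, close to 0, was 0.10, 0.030 and, with normal scores, 0.017. An overlap of 90% left 16.7% of class I domains kept, and one of 50% gave 100% in class III. At tolerance 0, 50% of DKO1 boundaries in class I were found. In class III 100% were found at 80 kb and at 120 kb, and in class II 100% of the boundaries of either line at 120 kb. Windows of chromosome 6 put 27.9%, 17.0% and 23.4% of windows below class I, III and II in change, in place of 12.7%, 7.60% and 9.75%. They put 96.8% and 85.1% below class III and II in A-to-B share, in place of 95.1% and 83.5%. Windows with a positive HCT116 mean gave 36.1%, 90.9% and 74.8% for that share. The depth of the maps is unknown, and its part in the sign changes and the number of domains was not tested.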

Other observations

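The flanks of the region differed from each other. In the 1 Mb on the telomeric side scores averaged 0.53 in HCT116 against 0.47 in DKO1, and 25 of 50 bins were lower in DKO1. Of the 12 B bins of this flank in HCT116, 8 went to A, or 16% of the flank, against 4.4% of autosomal bins. Of its 38 A bins 2 went to B, or 5.26%, against 16.6% of autosomal A bins. All of these lay near 0 in HCT116, the 8 from -0.24 to -0.023 and the 2 at 0.14 and 0.061. In the 1 Mb on the centromeric side the means were 1.08 and 0.54, all 50 bins were lower in DKO1, and 0 switched. In scores smoothed over 5 bins, unbroken falls of at least 200 kb on the telomeric side lay at 28380001 to 28920000, with a mean difference of -0.30, and at 29320001 to 29520000, with -0.13. DKO1 was then lower without a break from 29640001 to 32480000 and, beyond the unscored bins, from 32600001 to 36260000. The mean differences over these last stretches were -0.48 and -0.54.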
